A study of Mus musculus with 6 samples.

Results

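A set of 10 genes, most of them little described in photoreceptors, was followed in photoreceptors sorted from mice that received a guide RNA against Nr2e3. They are 10 of the 49997 gene symbols in the count tables, and all 10 passed the filter on low counts, as did 17138 genes in all. Tmem164, Ccdc175, Fyb2, Dzank1, Tcta, Smim13, Arid5a and Fam185a were chosen because earlier results from these same libraries placed them higher with the Nr2e3 guide, so their guide-against-control values are a description and support nothing. Jkamp and Rhoa were added because their exons overlap those of Ccdc175 and Tcta on the opposite strand, and their own levels played no part in that choice. These overlaps are read from GENCODE M21, and in RefSeq Tcta and Rhoa lie side by side without a shared base. Of the 8 chosen by level, 7 had an adjusted p under 0.05 in the edgeR fit, against 0.315% of all genes tested that were higher by that rule and 0.344% in either direction. Smim13 lay just inside that threshold (edgeR adjusted p = 0.0468) and Fam185a outside it (0.143), although DESeq2 called Fam185a (adjusted p = 4.8e-07), as did edgeR with no count filter (0.000572). Rhoa, unlike the others, is a much-studied gene. All gene positions are those of RefSeq in GRCm38.p6.

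The study compared 3 libraries with an Nr2e3 guide and 3 with a non-targeting control guide (NTC), each from the 2 injected retinas of a single mouse. All animals were Rosa26-Cas9 mice, which express SpCas9 in every cell, and all received an adeno-associated virus (AAV) with a 7m8 coat under the retina. Its human GRK1 promoter drives mCherry, a red protein by which transduced photoreceptors are sorted. Age at injection is given as postnatal day 21 in the series text and as 4 weeks in the treatment protocol, and about 100000 cells were sorted per sample 6 months later. Nr2e3-guide replicate 1 was male and replicates 2 and 3 were female, whereas all 3 NTC animals were male.

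Nr2e3 encodes a nuclear receptor of rods that acts mainly as a repressor and holds cone genes down in rods. Rods and cones are the light-sensing neurons of the retina, and both carry an outer segment of membrane discs that is supplied by transport through a connecting cilium. The genes described here encode membrane proteins, signalling proteins, a partner in transport and an RNA-binding protein, among others. For several of them no role in photoreceptors is established.

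Depth ran from 24705561 to 33098812 gene counts in Nr2e3-guide libraries and from 32626751 to 34286248 in NTC libraries. Nr2e3 itself was at 2094, 1906 and 2244 CPM (gene counts scaled to a common library size with TMM factors) in the Nr2e3-guide libraries, against 1756, 1572 and 1507 CPM in the NTC libraries. Whole-gene counts do not read insertions or deletions at a cut site, so the level says nothing for or against the labels. Of the defining rod genes, Gnat1, the rod transducin subunit, was at 30316 to 34129 CPM with the Nr2e3 guide and 33191 to 34871 CPM with NTC, as a photoreceptor sort would hold. Cone markers summed to 11297 to 15336 CPM with the Nr2e3 guide and 1345 to 7262 CPM with NTC, with the lowest sum in NTC replicate 3. Within that list only Gnat2, Pde6c and Pde6h averaged higher with the Nr2e3 guide, and the other 5 of the 8, Opn1sw, Opn1mw, Arr3, Gngt2 and Cngb3, averaged lower, with 0 of the 8 called by edgeR. NTC replicate 3 also had the highest sum of 9 microglia markers, 276 CPM, against 27.4 and 30.4 CPM in the other NTC libraries and 30.6, 154 and 102 CPM with the Nr2e3 guide. The part of cones or microglia in the levels below was not tested. In bulk RNA, a different share of a cell type and a different amount of RNA per cell cannot be told apart.

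Upstream windows are shown for Dzank1 with Polr3f and Tcta with Rhoa, head-to-head pairs whose genes share part of the window. Other close pairs were not compared, among them Jkamp with L3hypdh (115 bases apart) and Fam185a with Ccdc146 (184 bases apart). The window of Ccdc175 is also shown, as the only member with a match to a motif searched below. Each window is the 250 bases before and 50 after a RefSeq transcription start in GRCm38.p6, read 5′ to 3′ on the strand of its gene. In the pairs, capitals mark the bases that both windows share, 170 for Dzank1 with Polr3f and 100 for Tcta with Rhoa. In Ccdc175, capitals mark the match to TGCTGAC. The Dzank1 window is chr2:144527365-144527664 on the minus strand and the Polr3f window chr2:144527495-144527794 on the plus strand. The Tcta window is chr9:108306110-108306409 on the minus strand, the Rhoa window chr9:108305910-108306209 on the plus strand and the Ccdc175 window chr12:72184980-72185279 on the minus strand.
Dzank1: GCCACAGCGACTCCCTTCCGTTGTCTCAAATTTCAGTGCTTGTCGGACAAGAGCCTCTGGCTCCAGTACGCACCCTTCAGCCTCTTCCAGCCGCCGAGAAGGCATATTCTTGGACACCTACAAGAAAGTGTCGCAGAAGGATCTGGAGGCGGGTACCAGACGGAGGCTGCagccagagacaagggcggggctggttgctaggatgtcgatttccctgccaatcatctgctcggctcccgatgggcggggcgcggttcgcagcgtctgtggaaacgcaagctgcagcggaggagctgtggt
Polr3f: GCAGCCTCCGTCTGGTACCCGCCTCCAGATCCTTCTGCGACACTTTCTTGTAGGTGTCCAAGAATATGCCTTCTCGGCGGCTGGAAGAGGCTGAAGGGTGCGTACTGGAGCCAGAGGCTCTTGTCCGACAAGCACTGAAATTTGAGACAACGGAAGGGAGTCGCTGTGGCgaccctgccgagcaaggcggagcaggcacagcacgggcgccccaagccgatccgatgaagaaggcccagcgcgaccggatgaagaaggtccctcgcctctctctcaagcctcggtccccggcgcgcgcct
Tcta: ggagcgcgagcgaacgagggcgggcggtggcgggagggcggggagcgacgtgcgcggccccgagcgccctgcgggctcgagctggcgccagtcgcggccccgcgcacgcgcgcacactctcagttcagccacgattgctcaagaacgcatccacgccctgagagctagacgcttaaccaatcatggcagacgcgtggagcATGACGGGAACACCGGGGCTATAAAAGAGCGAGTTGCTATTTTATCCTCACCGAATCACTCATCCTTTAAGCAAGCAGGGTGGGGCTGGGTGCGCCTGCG
Rhoa: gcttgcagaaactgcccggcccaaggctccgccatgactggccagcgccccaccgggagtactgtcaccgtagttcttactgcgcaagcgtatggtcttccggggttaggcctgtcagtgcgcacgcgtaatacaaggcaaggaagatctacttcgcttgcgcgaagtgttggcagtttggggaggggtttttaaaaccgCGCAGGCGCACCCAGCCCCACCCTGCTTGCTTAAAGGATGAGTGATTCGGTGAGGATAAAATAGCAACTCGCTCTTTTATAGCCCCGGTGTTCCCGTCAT
Ccdc175: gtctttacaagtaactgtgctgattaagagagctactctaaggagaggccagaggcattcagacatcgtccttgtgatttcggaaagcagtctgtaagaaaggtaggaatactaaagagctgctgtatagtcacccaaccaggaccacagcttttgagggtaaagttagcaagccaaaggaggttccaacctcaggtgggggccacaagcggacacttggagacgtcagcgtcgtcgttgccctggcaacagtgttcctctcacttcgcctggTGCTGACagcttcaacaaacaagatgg
The 12 windows of the 10 genes were searched on both strands for AAGTCA, the half-site bound by Nr2e3, for TAATCC, a core bound by the photoreceptor factor Crx, and for TGCTGAC, a core bound by the rod factor Nrl. AAGTCA and TAATCC were found in 0 of the 12, against 15.1% and 7.06% of all 32851 mouse windows of this length. TGCTGAC was found in 1, that of Ccdc175, where it starts 24 bases into the transcript, against 4.67% of all windows. A match describes letters in the window, and its absence says only that these letters are not within it.

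Across the set, the 10 genes formed a group with low levels in NTC libraries and a group that was already abundant. Per kilobase of the longest annotated coding transcript, 6 genes stood low among 12638 protein-coding genes in NTC libraries, from the 1.12 percentile for Fyb2 and 1.50 for Ccdc175 to the 26.7 for Fam185a. Only genes that passed the count filter are ranked, and Fyb2 and Ccdc175 passed it through the Nr2e3-guide libraries, so their place at the bottom follows from the filter and the choice. With the Nr2e3 guide the same 6 ran from the 45.2 percentile for Fyb2 to the 77.4 for Tmem164. Tcta, Jkamp, Rhoa and Smim13 ranked high in both, at the 97.9, 91.7, 89.2 and 89.3 percentile with the Nr2e3 guide and the 95.2, 89.9, 85.4 and 81.5 with NTC. All 10 had each Nr2e3-guide library above each NTC library, a pattern found in 6.2% of genes tested (5.91% had it in the other direction), and for 8 of them it follows from the choice.

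**Figure D1:**
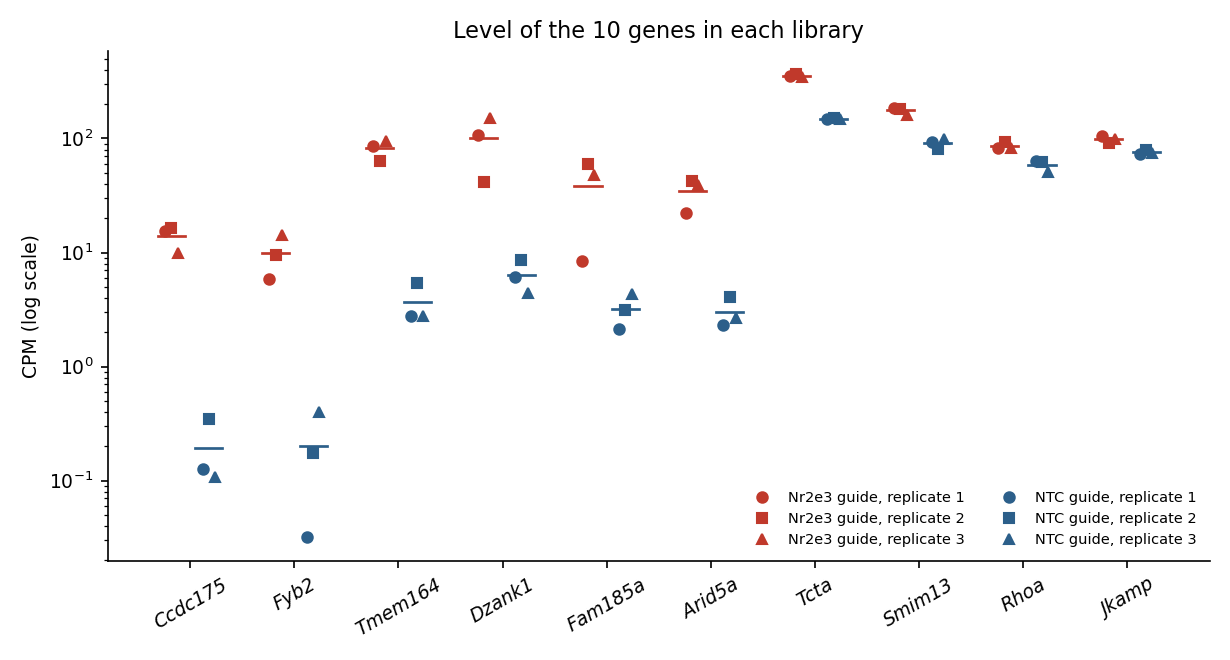
Level of each gene in CPM on a log axis, with 1 symbol per library and a bar at the group mean, ordered by fold difference. Each Nr2e3-guide symbol lies above each NTC symbol of its gene, with the smallest gap for Jkamp and the widest for Ccdc175.

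**Figure D2:**
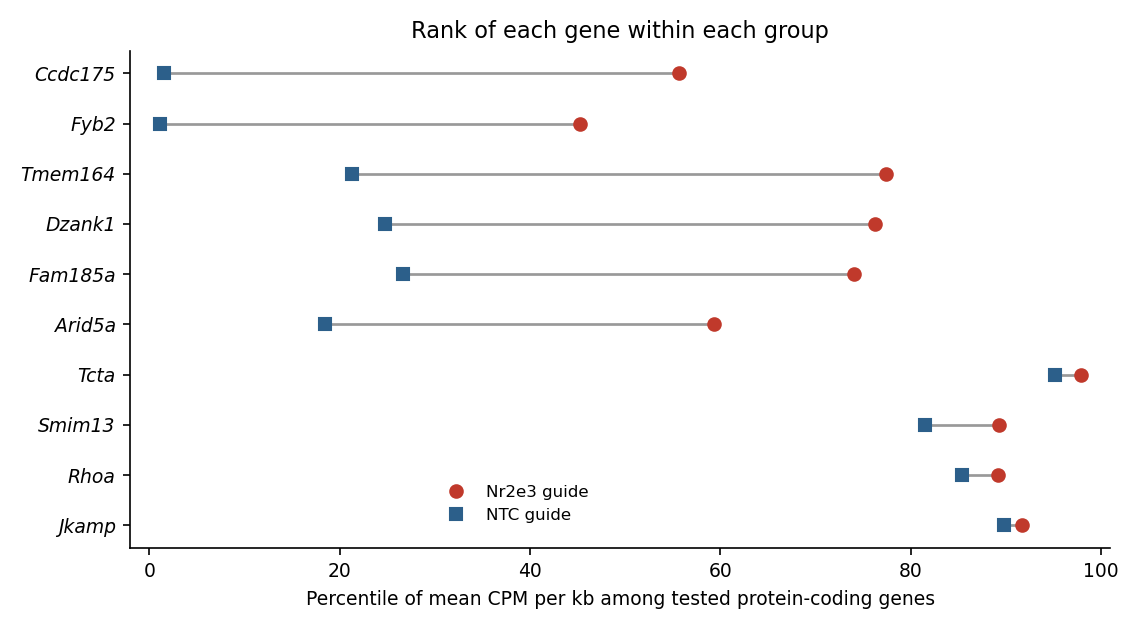
Percentile of the mean CPM per kilobase among 12638 tested protein-coding genes, for Nr2e3-guide libraries (circles) and NTC libraries (squares). Ccdc175 and Fyb2 lie near the bottom of the NTC ranking of genes that passed the filter, at 1.50 and 1.12, while Tcta lies above 95 in both groups.

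Among the membrane proteins, Tmem164 was well expressed with the Nr2e3 guide and low with NTC. It encodes a multi-pass membrane protein reported in human cells to make ether phospholipids with polyunsaturated chains, lipids tied to ferroptosis, a death by lipid oxidation. The gene lies on chromosome X (142680347 to 142843494, plus strand). It stood at 86.0, 63.9 and 95.6 CPM in the Nr2e3-guide libraries, against 2.80, 5.37 and 2.78 CPM in the NTC libraries, a log2 fold change of 4.49 (SE 0.33). The lowest Nr2e3-guide library was 11.9 times the highest NTC library. The only male with the Nr2e3 guide, replicate 1, had 86.0 CPM, between its female group mates. With a single male in that group, sex and the differences between animals cannot be told apart for this X-linked gene.

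Gm15049, a processed pseudogene within an intron of Tmem164 on the opposite strand, had 31, 26 and 40 counts in the Nr2e3-guide libraries and 0 counts in each NTC library. Against a limit of 3 counts over the NTC group, this is at least 40.2-fold higher, although edgeR gave an adjusted p of 0.0657. Gm15049 was called in 3 of 13 other settings, among them DESeq2 (adjusted p = 1.47e-05) and limma-voom (0.00336). Its exon shares no base with the exons of Tmem164, and without strand its counts cannot be told apart from intron reads of that gene. The nearest coding neighbour, Ammecr1, lies 7.65 kb beyond Tmem164 and was at 57.6 ± 1.94 CPM with the Nr2e3 guide and 61.0 ± 2.90 CPM with NTC (SD, n = 3 each), with an edgeR adjusted p of 0.995.

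Tcta, a small membrane protein named for a chromosome break in T cell leukaemia, had the tightest values of the set. Its gene lies on chromosome 9 (108302955 to 108306159, minus strand). Tcta was at 350, 368 and 345 CPM with the Nr2e3 guide and at 147, 150 and 147 CPM with NTC, a log2 fold change of 1.26 (SE 0.11). The coefficient of variation was 3.48% among Nr2e3-guide libraries and 1.23% among NTC libraries. The ratio of the group means was 2.39, a description only, since Tcta was chosen by this difference. Per kilobase, Tcta had the highest level of the 10 genes, 212 ± 7.38 CPM with the Nr2e3 guide and 88.7 ± 1.09 CPM with NTC (SD, n = 3 each).

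Rhoa, the small GTPase that drives actin contraction, starts next to Tcta on the other strand (chromosome 9, 108306160 to 108337943). It was at 82.3, 93.3 and 81.8 CPM with the Nr2e3 guide, against 63.3, 62.2 and 50.4 CPM with NTC. The log2 fold change was 0.55 (SE 0.15) and did not pass (edgeR adjusted p = 0.399), although the groups did not overlap. In GENCODE M21 the exons of this pair share 32 bases, 1.74% of the exon bases of Tcta and 0.427% of those of Rhoa. The remaining tested neighbours within 100 kb of Tcta are Dag1, Nicn1, Amt, Gpx1, Usp4 and 1700102P08Rik. They had log2 fold changes between 0.02 and 0.32. By edgeR, 0 of these 6 were called and 0 had an unadjusted p under 0.05, and DESeq2 and limma-voom called 0. In 2 of the 6, Dag1 and Nicn1, each Nr2e3-guide library lay above each NTC library, against 6.2% of genes tested.

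Smim13, a small single-pass membrane protein with no described role, lies on chromosome 13 (41249844 to 41276577, plus strand). It was at 186, 182 and 161 CPM with the Nr2e3 guide and at 92.2, 81.4 and 99.3 CPM with NTC. The log2 fold change was 0.96 (SE 0.14). The next coding gene on the lower side, 29.4 kb away, is Elovl2, which elongates polyunsaturated fatty acids. Elovl2 rose to 626, 485 and 431 CPM with the Nr2e3 guide, against 167, 140 and 113 CPM with NTC (log2 fold change 1.88, SE 0.20, edgeR adjusted p = 0.0157). Leaving out single libraries gave it an adjusted p of 0.0184 to 0.121 by edgeR, and it passed only without NTC replicate 3.

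Between Smim13 and Elovl2 lies the non-coding Gm32063, at 1.78 CPM on average with the Nr2e3 guide and 0.332 CPM with NTC (edgeR adjusted p = 0.926). On the other side of Smim13, Nedd9, a scaffold of cell adhesion, was at 7.34 CPM on average with the Nr2e3 guide and 6.77 CPM with NTC (edgeR adjusted p = 0.996).

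Fyb2 encodes an adaptor known from T cell receptor signalling in human cells and was almost silent with NTC (chromosome 4, 104835301 to 105016864, plus strand). Its counts were 156, 218 and 486 in the Nr2e3-guide libraries and 1, 6 and 15 in the NTC libraries. These correspond to 5.92, 9.49 and 14.3 CPM with the Nr2e3 guide, against 0.0318, 0.173 and 0.401 CPM with NTC (log2 fold change 5.56, SE 0.75). So few NTC counts leave the size of the ratio loosely fixed, while the lowest Nr2e3-guide library was 14.8 times the highest NTC library. The log2 fold change was 6.50 without NTC replicate 3 and 4.82 with sex as a term.

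T cell markers stayed at trace levels in every library. The 8 markers summed to 0.910 to 1.87 CPM with the Nr2e3 guide and 0.349 to 1.64 CPM with NTC. Cd3d and Trac were at 0 in all 6 libraries, while Lck and Cd8a passed the count filter. On average, Lck was at 0.319 CPM with the Nr2e3 guide and 0.376 CPM with NTC, and Cd8a at 0.589 and 0.555 CPM. The part of T cells in the level of Fyb2 was not tested. Fyb, the better known relative of Fyb2, was at 1.20 ± 0.820 CPM with the Nr2e3 guide and 1.15 ± 1.09 CPM with NTC (SD, n = 3 each, edgeR adjusted p = 0.998).

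Prkaa2, a catalytic subunit of the energy sensor AMPK, lies 12.8 kb beyond Fyb2. It was at 31.1, 30.9 and 34.9 CPM with the Nr2e3 guide, against 13.6, 14.4 and 8.10 CPM with NTC. All Nr2e3-guide libraries were at least 2.14 times the highest NTC library, with a log2 fold change of 1.42 (SE 0.25) and an edgeR adjusted p of 0.106. DESeq2 called it (adjusted p = 4.7e-05). Gm52670, a non-coding transcript that overlaps the end of Fyb2, was at 1.44, 1.35 and 1.15 CPM with the Nr2e3 guide and 0.0318, 0 and 0.321 CPM with NTC (edgeR adjusted p = 0.630). Of 13 other settings, 1 called Gm52670, limma-voom (adjusted p = 0.0139). Dab1, the tested neighbour on the other side, was at 3.76 CPM on average with the Nr2e3 guide and 6.34 CPM with NTC (edgeR adjusted p = 0.995).

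Ccdc175, a coiled-coil protein with no established role, had a greater fitted fold change than the other 9 genes (chromosome 12, 72101292 to 72185029, minus strand). It was at 15.5, 16.3 and 9.80 CPM with the Nr2e3 guide, against 0.127, 0.346 and 0.107 CPM with NTC. In raw counts these are 408, 374 and 333 with the Nr2e3 guide, against 4, 12 and 4 with NTC. The lowest Nr2e3-guide library was 28.3 times the highest NTC library, and the log2 fold change was 6.13 (SE 0.53). Without NTC replicate 2 it was 6.84. Fyb2 ranked above Ccdc175 without NTC replicate 3 (6.50 for Fyb2 and 5.83 for Ccdc175) and with limma-voom (6.03 and 5.71).

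Jkamp, a membrane protein of the endoplasmic reticulum that binds the kinase JNK1 and takes part in the removal of misfolded proteins, ends across the 3′ end of Ccdc175 (chromosome 12, 72085548 to 72101527, plus strand). In GENCODE M21 their exons share 121 bases, 4.61% of the exon bases of Ccdc175. Jkamp was at 106, 91.7 and 99.1 CPM with the Nr2e3 guide and at 73.8, 79.6 and 75.0 CPM with NTC, a log2 fold change of 0.38 (SE 0.13) that did not pass (edgeR adjusted p = 0.632). Jkamp had 2794, 2107 and 3368 counts with the Nr2e3 guide and 2323, 2758 and 2808 counts with NTC. Without strand, reads from the shared bases cannot be told apart.

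Gm18243, a pseudogene within an intron of Ccdc175, had 19, 19 and 13 counts with the Nr2e3 guide and 0 in each NTC library, at least 21.1-fold higher against 3 counts over the NTC group (edgeR adjusted p = 0.147). Gm18243 was called in 2 of 13 other settings, DESeq2 (adjusted p = 0.00377) and limma-voom (0.0146). It shares no exon base with Ccdc175. As with Gm15049, its counts cannot be told apart from intron reads of its host. L3hypdh, an enzyme of hydroxyproline breakdown that starts 115 bases from Jkamp, was at 5.13 ± 0.295 CPM with the Nr2e3 guide and 3.48 ± 0.711 CPM with NTC (SD, n = 3 each, edgeR adjusted p = 0.957). The pseudogene Gm19135, within the span of Jkamp, was at 0.536 CPM on average with the Nr2e3 guide and 0.599 CPM with NTC, and Rtn1, on the other side of Ccdc175, at 40.6 CPM with the Nr2e3 guide and 30.1 CPM with NTC (edgeR adjusted p = 0.996 and 0.926).

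Dzank1, whose zebrafish counterpart binds ninein-like and serves dynein transport in photoreceptors, varied widely among Nr2e3-guide libraries (chromosome 2, 144470555 to 144527507, minus strand). It was at 108, 41.5 and 151 CPM with the Nr2e3 guide, against 6.07, 8.60 and 4.38 CPM with NTC (log2 fold change 3.98, SE 0.51). The highest Nr2e3-guide library was 3.63 times the lowest, and the lowest was 4.83 times the highest NTC library. Summed amacrine markers ran in the same order within the Nr2e3-guide group, at 157, 56.6 and 256 CPM, and within the NTC group, at 270, 312 and 127 CPM. Summed pigment epithelium markers did so too, at 2.12, 1.17 and 3.65 CPM with the Nr2e3 guide and 15.1, 15.9 and 5.13 CPM with NTC. Between the groups the amacrine sums overlapped, while Dzank1 did not. The pigment epithelium sums were lower with the Nr2e3 guide, where Dzank1 was higher. The part of either cell type in the level of Dzank1 was not tested.

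Polr3f, a subunit of RNA polymerase III, starts 238 bases from Dzank1 in the opposite direction. It was at 61.1, 44.6 and 108 CPM with the Nr2e3 guide, against 30.4, 37.0 and 29.7 CPM with NTC. Among the Nr2e3-guide libraries the order of Polr3f matched that of Dzank1, with replicate 3 highest and replicate 2 lowest, and among NTC libraries the order was also the same. The log2 fold change of Polr3f was 1.14 (SE 0.31) and did not pass by edgeR (adjusted p = 0.428), whereas DESeq2 gave an adjusted p of 0.0454. On the other side of Dzank1, the pseudogene Zfp133-ps was at 4.00 CPM on average with the Nr2e3 guide and 3.61 CPM with NTC (edgeR adjusted p = 0.995). The coding genes beyond Polr3f and within 100 kb of Dzank1, which are Rbbp9, Sec23b, Smim26 and Dtd1, had log2 fold changes between -0.28 and 0.26 and edgeR adjusted p between 0.957 and 0.996.

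Arid5a binds RNA and, in mouse immune cells, stabilises messages such as those of Il6 and Stat3 (chromosome 1, 36307733 to 36324037, plus strand). It was at 22.2, 42.6 and 38.7 CPM with the Nr2e3 guide, against 2.32, 4.10 and 2.67 CPM with NTC (log2 fold change 3.51, SE 0.35). With sex as a term the log2 fold change was 2.87 (SE 0.33). The male Nr2e3-guide library was the lowest of its group, at 7.32 times the mean of the male NTC libraries. Within the Nr2e3-guide group the order of Arid5a was that of the microglia sums given above. It was also that of the Muller glia sums (793, 1269 and 1076 CPM) and of the trace T cell sums (0.910, 1.87 and 1.06 CPM). With NTC, of these 3 sums only those of T cells (0.349, 1.64 and 1.10 CPM) ran in the order of Arid5a. NTC replicate 3, with the highest microglia sum of all 6, had 2.67 CPM of Arid5a. The part of sex or of these cell types in the level of Arid5a cannot be read from single libraries and was not tested. Kansl3, a subunit of a histone acetylation complex 11.7 kb beyond Arid5a, was at 165, 190 and 226 CPM with the Nr2e3 guide and 136, 150 and 134 CPM with NTC (log2 fold change 0.47, SE 0.15, edgeR adjusted p = 0.598), and Uggt1, on the other side, had an adjusted p of 0.995.

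Fam185a, which has no described role, varied more among Nr2e3-guide libraries than the other 9 genes, with a coefficient of variation of 69.8% (chromosome 5, 21424861 to 21488271, plus strand). It was at 8.38 CPM in the male Nr2e3-guide library and at 60.1 and 47.5 CPM in the female ones, against 2.13, 3.14 and 4.36 CPM in the male NTC libraries. The female Nr2e3-guide libraries averaged 6.42 times the male one, which in turn was 2.61 times the NTC mean. Over all 6 libraries the log2 fold change was 3.59 (SE 0.70), and with sex as a term it was 1.38 (SE 0.39, edgeR adjusted p = 0.509). With a single male in the Nr2e3-guide group, sex and the differences between animals cannot be told apart. The microglia sums ran in the order of Fam185a within the Nr2e3-guide group too, and within the NTC group, at 27.4, 30.4 and 276 CPM. NTC replicate 3, where that sum was highest, had 4.36 CPM of Fam185a. The Muller glia and T cell sums ran in the order of Fam185a within the Nr2e3-guide group but not within the NTC group. The part of these cell types in the level of Fam185a was not tested. Fbxl13, which overlaps the end of Fam185a and is its only tested neighbour, was at 0.344 CPM on average with the Nr2e3 guide and 0.274 CPM with NTC (edgeR adjusted p = 0.996).

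In all, 61 genes lie within 100 kb of the 10 and 36 of these were tested. By edgeR, 1 rose, Elovl2, and 0 fell, against 0.315% and 0.0292% of all genes tested, while 8 had an unadjusted p under 0.05, against 5.69% of all genes. DESeq2 called 6 neighbours higher and limma-voom 5, where they called 201 and 160 of all 17138 genes higher. The median log2 fold change of the neighbours was 0.27, against -0.01 over all genes tested. Some neighbours overlap their gene or lie in its introns, so the 36 are not independent of the genes that chose them.

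**Figure D3:**
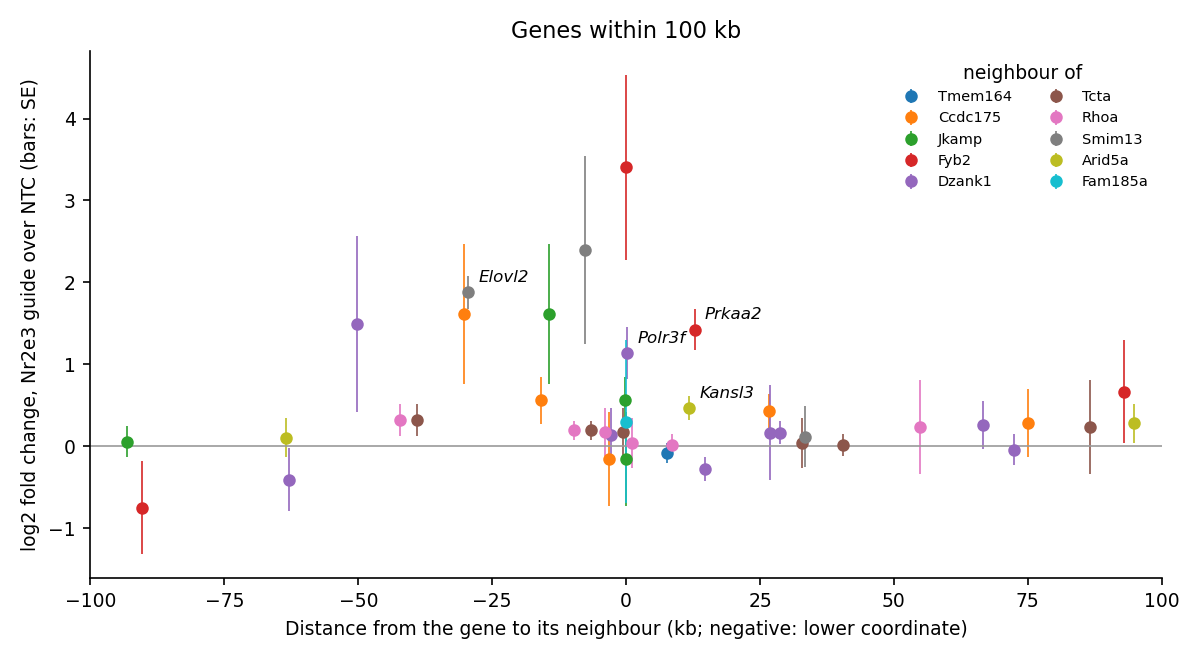
Log2 fold change with its SE (Nr2e3 guide over NTC) for tested genes within 100 kb, by distance from the gene they neighbour, with overlapping genes at 0. Genes near 2 of the 10 are drawn for both, and Gm15049 and Gm18243, at 0 in all NTC libraries, and 1 other gene are left out. Elovl2, Prkaa2 and Polr3f lie above 1, as do several genes of low level with wide bars, while most points lie near 0.

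In the pathways around these genes, edgeR called none of the genes tested. Of 110 genes in 7 lists, 103 were tested, and 0 rose and 0 fell, against 0.315% and 0.0292% of all genes tested. An unadjusted p under 0.05 was found for 3 of the 103, against 5.69% of all genes. DESeq2 and limma-voom each called 1 higher, Arhgdib, where they called 201 and 160 of all 17138 genes higher. List medians of the log2 fold change ran from -0.21 for the partners and targets of Arid5a to 0.03 for JNK and ER-associated degradation. For that list, Vcp, the ATPase that pulls proteins from the membrane, was at 268 CPM on average with the Nr2e3 guide and 321 CPM with NTC and Rnf5, a ubiquitin ligase, at 122 CPM with the Nr2e3 guide and 126 CPM with NTC.

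Among genes that act with Rhoa, Arhgdib, which holds small GTPases in the cytosol, was at 114, 133 and 104 CPM with the Nr2e3 guide and 36.1, 35.5 and 11.5 CPM with NTC (log2 fold change 2.08, SE 0.41, edgeR adjusted p = 0.143). Its values were known when it was picked for mention, and without NTC replicate 3, which had its lowest value, the edgeR adjusted p was 0.0126. Cfl1, which cuts actin filaments, was at 240 CPM on average with the Nr2e3 guide and 256 CPM with NTC and Cdc42 at 173 CPM with the Nr2e3 guide and 163 CPM with NTC.

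Ether lipid synthesis and ferroptosis genes numbered 15, with 0 past the edgeR threshold and 1 at unadjusted p under 0.05. Gpx4, which removes lipid peroxides, was at 872 CPM on average with the Nr2e3 guide and 935 CPM with NTC, and Map1lc3b, an autophagosome protein, at 515 CPM with the Nr2e3 guide and 527 CPM with NTC. Aifm2, a quinone reductase that also guards against lipid peroxides, had 9.86, 10.4 and 16.0 CPM with the Nr2e3 guide, against 17.4, 19.5 and 23.1 CPM with NTC (log2 fold change -0.73, SE 0.25, edgeR adjusted p = 0.682), and was likewise picked with its values known.

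Dynein and ninein-like genes numbered 22, likewise with 0 past the edgeR threshold and 1 at an unadjusted p under 0.05, and Ninl itself was at 0.204 ± 0.180 CPM with the Nr2e3 guide and 0.638 ± 0.655 CPM with NTC (SD, n = 3 each). Dynll1, a dynein light chain, was at 366 CPM on average with the Nr2e3 guide and 355 CPM with NTC and Dynlrb1, another, at 195 CPM with the Nr2e3 guide and 184 CPM with NTC. Lca5, a ciliary protein known from early blindness, was at 187, 182 and 170 CPM with the Nr2e3 guide and 140, 138 and 136 CPM with NTC (edgeR adjusted p = 0.520), again picked with its values known.

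T cell adaptors (9 of 12 tested), other ARID genes (9 of 9) and Arid5a partners and targets (4 of 7) had 0 genes past the threshold by edgeR and 0 at unadjusted p under 0.05. In the adaptor list, Skap2 was at 8.49 CPM on average with the Nr2e3 guide and 9.34 CPM with NTC and Evl, which binds actin filaments, at 5.01 CPM with the Nr2e3 guide and 6.97 CPM with NTC. Among ARID genes, Arid3b was at 300 CPM on average with the Nr2e3 guide and 261 CPM with NTC and Arid1a, a chromatin remodelling subunit, at 71.6 CPM with the Nr2e3 guide and 84.2 CPM with NTC. Stat3 was at 24.8, 43.0 and 40.9 CPM with the Nr2e3 guide and 25.6, 25.9 and 105 CPM with NTC, its high value being in NTC replicate 3, and Rc3h2 was at 38.2 CPM on average with the Nr2e3 guide and 35.6 CPM with NTC. Il6 was below the filter in both groups.

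**Figure D4:**
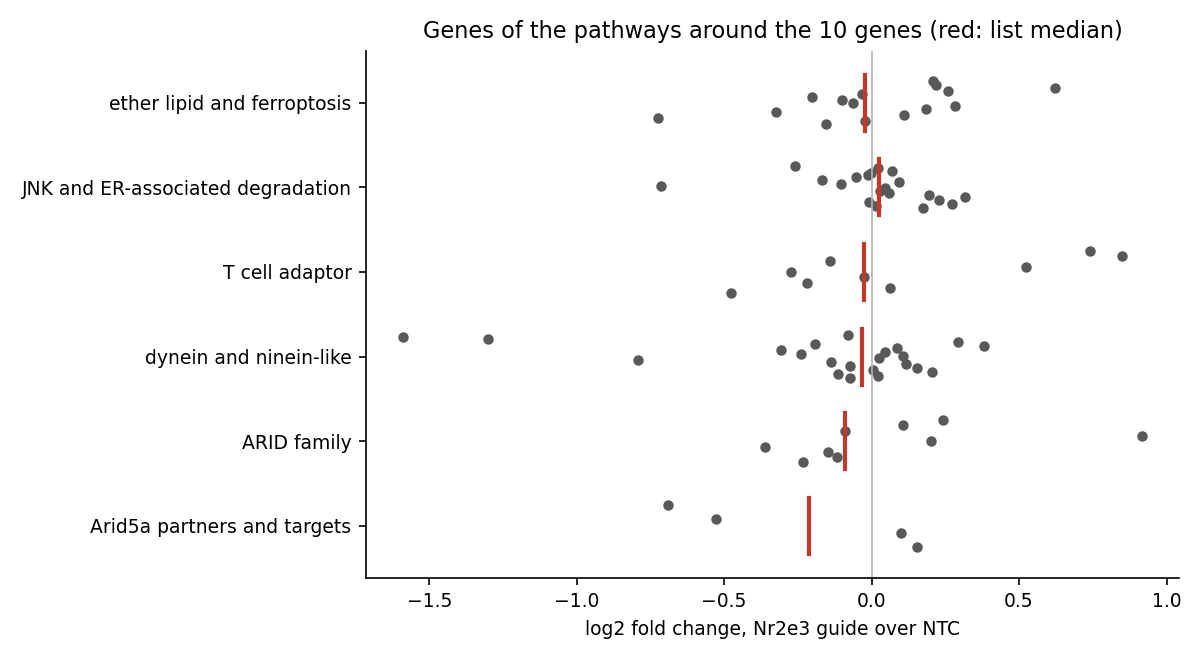
Log2 fold change (Nr2e3 guide over NTC) of each tested gene in 6 of the 7 pathway lists, with a red bar at each list median. The medians lie between -0.21 and 0.03, and no list lies to one side of 0.

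Profiles over the 6 libraries were compared with those of other genes. Likeness was the Euclidean distance between log2 CPM profiles, each centred on its own mean, among 8602 named coding genes of at least 5 CPM on average, and it carries the group difference by which 8 of the genes were chosen. Tmem164 was nearest to Kdm1b (distance 1.20) and Dzank1 (1.31). Dzank1 in turn was nearest to Epha10 (0.718) and Adrb1 (0.857), Ccdc175 to Igfbp2 (1.15) and Ppef1 (1.77), and Fyb2 to Tmem164 (2.24) and Kdm1b (2.26). Arid5a was nearest to Clca1 (1.35) and Epha10 (1.39), and Fam185a to Arid5a (1.70) and Ipo4 (2.17). The abundant genes had closer matches, Tcta with Lgr4 (0.236) and Pde4dip (0.281), and Smim13 with Ppfia2 (0.190) and Napb (0.200). Jkamp matched Eif4a2 (0.0844) and Tprkb (0.0988), and Rhoa matched Tuba1a (0.0923) and Vps29 (0.150). Profiles were centred but not scaled, so genes with small differences between libraries lie close to many others. The closer matches of the abundant genes therefore say nothing of shared control.

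Each gene kept its direction in every one of the 14 other settings that tested it, while the calls varied. With 8 of the genes chosen by this difference and the groups of all 10 apart, the kept direction supports nothing. Fyb2 was not tested at a minimum mean of 5 CPM. Tmem164 and Ccdc175 passed in 13 settings each, and Jkamp and Rhoa in 0. Without NTC replicate 3, Fam185a, Jkamp and Rhoa alone did not pass, and without Nr2e3-guide replicate 1 Tmem164, Ccdc175, Tcta, Arid5a and Fam185a did. Without NTC replicate 1, only Tmem164 and Ccdc175 passed by edgeR, without NTC replicate 2 Arid5a as well, and without Nr2e3-guide replicate 3 those 2 with Tcta. Without Nr2e3-guide replicate 2, Tmem164, Ccdc175, Dzank1 and Tcta passed. Fam185a passed by edgeR without Nr2e3-guide replicate 1, the male (log2 fold change 4.06, adjusted p = 0.0242), a fit that sets females against males. With sex as a term, where the difference rests on that male, 0 of the 10 passed by edgeR (1305 genes at unadjusted p under 0.05), and the value for Tmem164 was 4.56 on the log2 scale (SE 0.41, edgeR adjusted p = 0.0655).

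**Figure D5:**
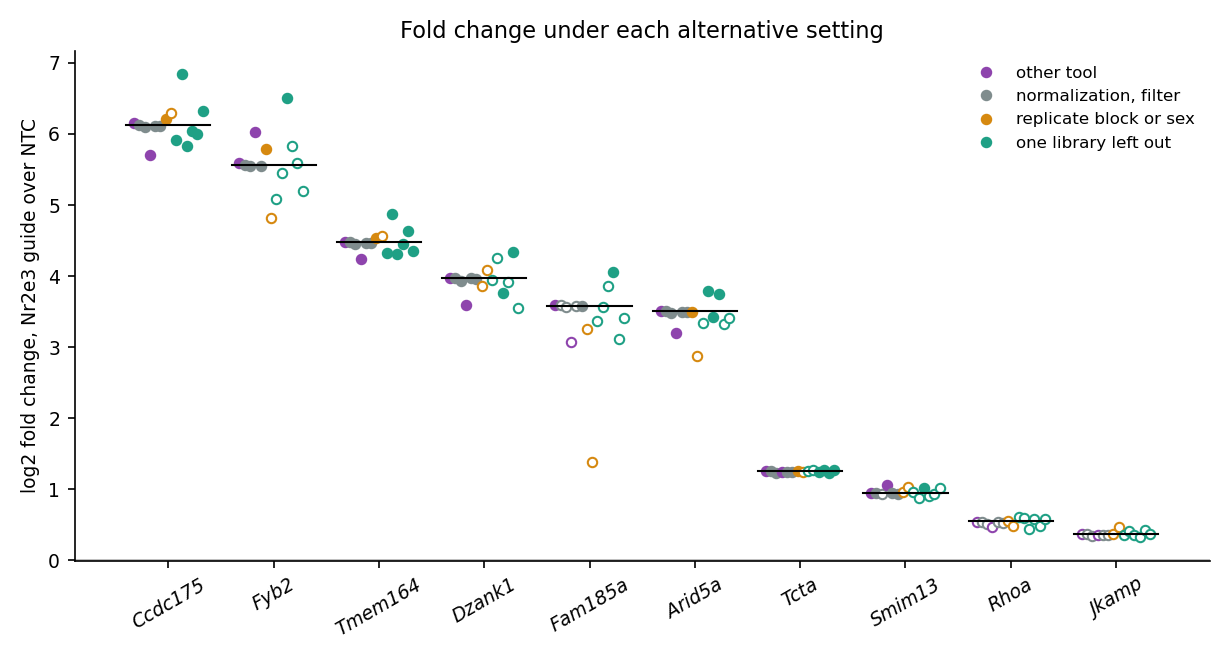
Log2 fold change of each gene under 14 alternative settings (filled circles, adjusted p under 0.05; open circles, not), with a black line at the value of the fit described above. All values lie above 0, and Fam185a falls to 1.38 with sex as a term.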

How the data were processed

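Each library gave a deposited table of raw read counts per gene symbol, 49997 symbols and 5 entries that name no gene. The entries took 21.6 to 23.7% of the counts, and neither library sizes nor tests include them. Per the labels' protocols, Trizol-extracted total RNA was turned into cDNA with the SMARTer Ultra Low kit, and this chemistry keeps no strand. Per the submitters' processing notes, HTSeq 0.12.4, STAR 2.7.3a, DESeq2 1.42.0 and cutadapt were used with GRCm38 (mm10). Their roles, the annotation and the strand setting were not given in the sources used here. Reads within overlapping or near-identical genes can be lost or shared. Coordinates and sequences come from RefSeq GRCm38.p6, which held all 49997 symbols and windows for all 10 genes, and exon overlaps and transcript lengths from GENCODE M21.

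The comparison of groups used R 4.3.3 and its package edgeR 4.0.16 (TMM factors, filterByExpr with min.count 10 and 15 in total, glmQLFit and glmQLFTest, group as the only term, Benjamini-Hochberg adjustment over all genes, threshold 0.05). SE is the log2 fold change divided by the root of the F statistic. The fits were tested on simulated data. In each library 3 counts correspond to 0.0875 to 0.121 CPM by gene total, a limit of counting error only, since reads carry no molecular identifiers. Libraries of each group are separate animals, and no pair within a group was close to sampling noise (chi-square per degree of freedom at least 15.9). Alternatives were DESeq2 1.42.0, limma-voom (limma 3.58.1) with quality weights, DESeq2 size factors, upper-quartile factors, no filter, a mean of at least 5 CPM, a replicate block, a sex term, and each library left out.

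The members and gene lists were chosen with earlier results of these data known. The text names all members, each called neighbour and the nearest tested neighbour on either side, up to 4 called genes per pathway list or the 2 of highest level, and the 2 nearest profiles per member, leaving out pseudogenes and unnamed transcripts. Other genes were chosen after their values were seen, among them Polr3f's further neighbours, Stat3, Ninl, Fyb, the pseudogenes and the neighbours of Tcta. So were the DESeq2 and limma-voom values given for single neighbours, and the values of Lck and Cd8a. Protein sequences were not used here, and some genes and a pathway list are not reported here.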

Additional observations from a re-analysis of the deposited data

How the results depend on the processing

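Of 139 values for the 10 genes over 14 settings, 107 kept their direction and side of the threshold, 29 were no longer past it, 3 passed newly and 0 reversed. The groups of all 10 did not overlap and 8 were chosen by that difference, so the lack of reversals supports nothing. Over all genes, 54 were higher and 5 lower in the fit described. DESeq2 called 201 higher and 70 lower, limma-voom 160 and 19, no count filter 130 and 25, the replicate block 31 and 1, and sex as a term 6 and 0 by edgeR (1305 at unadjusted p under 0.05). Leaving out single libraries gave 14 to 80 higher and 0 to 9 lower by edgeR (661 to 1730 at unadjusted p under 0.05). Of the 10 genes, 7 were higher in the fit described, 0 with sex as a term and 2 to 7 without single libraries. Among neighbours, DESeq2 called 6 higher, limma-voom 5, no filter 3 and sex as a term 0, against 0 to 1 without single libraries. Among pathway genes, 1 was higher with DESeq2, limma-voom or no filter, and 0 to 1 without single libraries. The cause of these differences was not tested.

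Replicate numbers name different animals, and same-numbered libraries did not deviate together (r = 0.14, -0.14 and 0.04 for numbers 1, 2 and 3), so not every library correlated best with its own number. With the replicate block, 5 of the 10 genes passed, and Dzank1 (adjusted p = 0.174) and Smim13 (0.157) did not. The median log2 fold change of all genes stayed between -0.04 and 0.02 in every setting. Depth limits the ratios of Fyb2 and Ccdc175 most, since their NTC counts are few.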
